A study of Mus musculus with 10 samples.

Results

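The genes described here build the hair bundle of inner ear hair cells and its mechanotransduction machinery, together with 2 genes of outer hair cells. They were chosen by name from a list of 33 genes, by taking each row of the value table annotated with exactly 1 symbol that was on the list. Of the 33, 31 were found, each with a single row, among 29766 genes in all, while Cib2 and Grxcr1 were not analysed here. The arrays measured total RNA from inner ear tissue, labelled as cochlea, of CBA/CaJ mice aged 6 months and with normal hearing, a strain whose hearing declines late in life. Every mouse was housed alone. The 5 runner samples (labelled RW) came from cages that held a running wheel and the 5 control samples from cages without a wheel, with 1 array per sample. The labels name no genotype, sex or length of wheel access, and nothing in them ties each array to its own mouse, so the tests rest on the spread among these samples, part of which may be technical. The comparison asks how hair bundle gene expression in the young ear differed with a wheel in the cage, within a series about exercise and age-related hearing loss.

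A hair bundle is a staircase of actin-filled stereocilia on the apex of each hair cell. Deflection of the bundle by sound or head movement pulls on tip links, which open transduction channels near the tips of the shorter rows. Unconventional myosins and scaffold proteins build and hold this apparatus, actin-binding proteins set the length and stiffness of each stereocilium, and in outer hair cells the motor protein prestin adds amplification. Hair cells are few among the cells of the inner ear, so their transcripts are a small part of RNA from whole tissue.

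Signals are log2 values from the RMA procedure, in which a step of 1 is a doubling, and signals of different genes come from different probes and were not ranked against each other as amounts of RNA. No detection calls came with the values, so background was read from 1717 olfactory and vomeronasal receptor genes, which serve the nose, and the 95th percentile of their means was 4.13. The mean over all arrays lay above it for 29 of 31 members, beside 69.4% of all genes tested. Myo3a at 2.97 and Tmc2 at 4.04 lay below, Myo3a on every array and Tmc2 on 8 of 10, so that differences of these genes carry little information. Just above the level were Pcdh15 at 4.19, Slc26a5 at 4.34, Tmc1 at 4.36 and Clrn1 at 4.43, which together with the first pair did not reach the 99th percentile of the receptor genes, 4.92. Means between 7.19 and 8.91 in runners were measured for Atp2b2, Myo6, Rdx, Tprn and Pls1, genes that are also known outside hair cells.

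**Figure D1:**
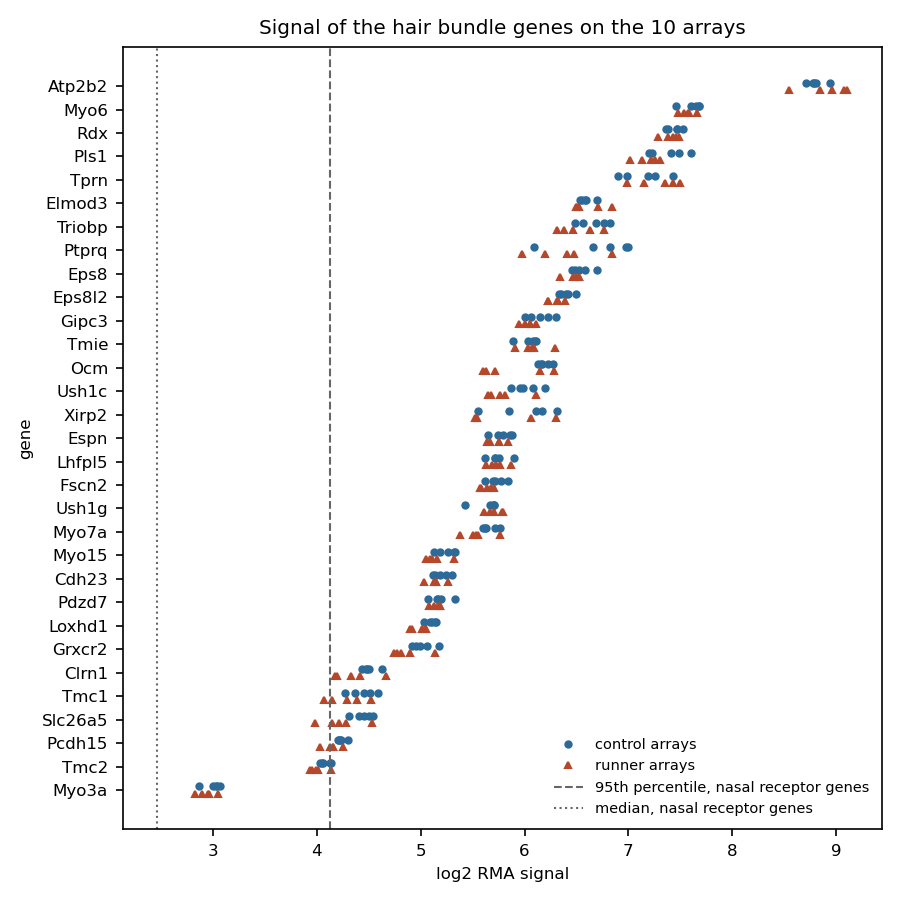
Log2 RMA signal (x axis) of the 31 hair bundle genes (y axis) on each of the 5 control arrays (circles) and 5 runner arrays (triangles), with the median (dotted line) and the 95th percentile (dashed line) of olfactory and vomeronasal receptor genes. Only Myo3a and Tmc2 have means below the dashed line at 4.13, and for Ocm 3 runner arrays stand left of all control arrays.

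Other hair cell genes were measured as a check of the tissue. Of these, 9 of 10 lay above background, beside 69.4% of all genes tested, so the count is a weak check. Among them were Otof, needed for transmitter release from hair cells, at 6.25, and Gfi1, a hair cell transcription factor, at 6.09. Tissue other than the sensory epithelium was present as well. Genes of cerebellar neurons such as Gabra6 had a mean of 10.7, the muscle myosin Myh4 had 9.19 and the marrow gene Alas2 had 9.67. Whether these tissues add to the signal of the other hair cell genes was not tested. In such bulk samples fewer hair cells and less RNA per hair cell cannot be told apart, and several members are expressed in brain or muscle too. Correlations across all genes lay between 0.991 and 0.997 within groups, and array medians between 5.35 and 5.43.

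Most hair bundle genes had a lower mean in runners, by small amounts, and none passed the test. Of 31 members, 26 had a difference below 0, whereas 49.5% of all genes did. The median difference (runner minus control) was -0.094 on the log2 scale over the members and 0.0009 over all genes tested. In limma with Benjamini-Hochberg adjustment over all genes, 0 of 31 members reached an adjusted p under 0.05, the threshold used here, beside 0.00672% of all genes. At an unadjusted p under 0.05 there were 5 members, each lower in runners, which is 16.1% of the members where 3.92% of all genes were lower and 7.13% differed in either direction. They were Ocm, Ush1c, Slc26a5, Pls1 and Loxhd1. For 0 of 31 members did the groups fail to overlap, beside 0.927% of all genes. The members and their list were proposed with results of these arrays known, so these shares are a description.

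The 5 members at an unadjusted p under 0.05 share a direction, and their promoters are shown because they had the smallest p of the members. RefSeq promoters (GRCm38.p6) were matched for 25 of 31 members, with 33 start sites, and not for Loxhd1, Tmc2, Ush1g, Ptprq, Grxcr2 and Eps8. The 200 bases before the start site are printed 5′ to 3′ on the strand of the gene, and capitals mark CAGNTG, a form of the E-box bound by basic helix-loop-helix factors, found on either strand. Ocm lies on the minus strand, with this window at chr5:144050610-144050809, Slc26a5 on the minus strand at chr5:21865605-21865804, Ush1c on the minus strand at chr7:46238491-46238690 and Pls1 on the minus strand at chr9:95845280-95845479.
Ocm: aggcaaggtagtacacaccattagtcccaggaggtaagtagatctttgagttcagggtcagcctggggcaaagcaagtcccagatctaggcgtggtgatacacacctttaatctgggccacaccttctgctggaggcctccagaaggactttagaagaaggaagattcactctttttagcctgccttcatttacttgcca
Slc26a5: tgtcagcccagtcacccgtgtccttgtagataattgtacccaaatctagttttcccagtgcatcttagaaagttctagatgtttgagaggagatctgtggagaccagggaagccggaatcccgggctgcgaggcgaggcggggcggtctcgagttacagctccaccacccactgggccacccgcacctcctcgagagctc
Ush1c: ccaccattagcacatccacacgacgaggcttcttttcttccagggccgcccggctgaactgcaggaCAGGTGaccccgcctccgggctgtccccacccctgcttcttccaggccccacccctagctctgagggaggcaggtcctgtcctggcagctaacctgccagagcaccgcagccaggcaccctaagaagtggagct
Pls1: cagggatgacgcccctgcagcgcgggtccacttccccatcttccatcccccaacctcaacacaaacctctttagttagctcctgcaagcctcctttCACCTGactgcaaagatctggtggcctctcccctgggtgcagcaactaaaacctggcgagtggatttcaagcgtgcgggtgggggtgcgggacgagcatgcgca

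The E-box form CAGNTG occurred once in the Ush1c window, starting at base -134, and once in the Pls1 window, starting at -104, where -1 is the base before the start site. It was found in 0 places in the windows of Ocm and Slc26a5. Over all member promoters it stood in 11 of 33 windows (33.3%), beside 37.9% of 32851 promoters of the table. A TATAAA box stood in 2 of 33 member windows (6.06%) beside 9.96% of all, CCAAT in 7 of 33 (21.2%) beside 29.3%, and TAATTAAT, a core of sites for POU4-type factors, in 0 of 33 beside 0.618%. These last 3 motifs were in 0 of the 4 windows printed. All were searched on both strands. The windows of Ocm and Slc26a5 held 49.0% and 57.0% G and C, those of Ush1c and Pls1 64.5% and 59.5%.

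The pair of outer hair cell genes had the lowest median difference of the role groups, -0.27, and both lay at an unadjusted p under 0.05. Ocm encodes oncomodulin, a calcium-binding protein of outer hair cells that is also made by some vestibular hair cells. Its log2 signal was 6.17, 6.27, 6.13, 6.16 and 6.23 on control arrays 1 to 5 and 6.28, 5.72, 5.60, 5.63 and 6.15 on runner arrays 1 to 5. The controls lay close together, runners 2, 3 and 4 lay below all of them, and runner 1 was level with control 2, the highest control. The control mean was 6.19 ± 0.057 (SD, n = 5) and the runner mean 5.88 ± 0.31 (SD, n = 5), which gave a difference of -0.32 ± 0.12 (SE) with a 95% interval from -0.58 to -0.052 and an adjusted p of 0.629.

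Slc26a5 encodes prestin, the motor protein that lets outer hair cells change length with voltage. Its log2 signal was 4.41, 4.50, 4.31, 4.45 and 4.54 in controls and 4.53, 4.28, 3.98, 4.15 and 4.21 in runners, in the order of array numbers. Runners 2 to 5 lay below every control and runner 1 lay among the highest controls. Means were 4.44 ± 0.088 (SD, n = 5) and 4.23 ± 0.20 (SD, n = 5), a difference of -0.21 ± 0.090 (SE), with an interval from -0.41 to -0.017 and an adjusted p of 0.671. Without runner 1 the difference was -0.42 ± 0.10 for Ocm and -0.29 ± 0.073 (SE) for Slc26a5, with adjusted p of 0.0851 and 0.0917. Leaving out runner 3 instead gave -0.25 for Ocm and -0.15 for Slc26a5, each at an adjusted p of 0.885. Over all alternative fits the adjusted p reached up to 0.992 for both genes. Signals of Slc26a5 lay near the background level, where a fold change can be understated.

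**Figure D2:**
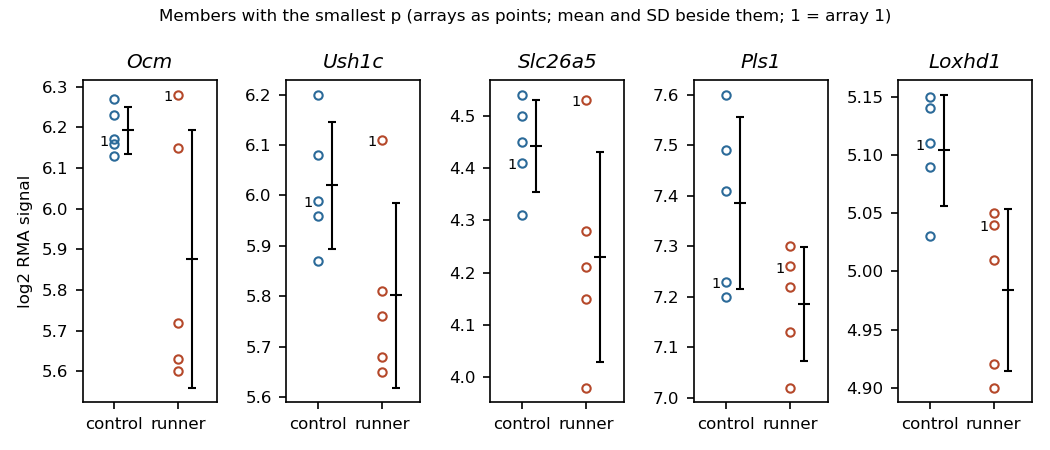
Log2 RMA signal (y axis, a separate scale in each panel) of the 5 members at an unadjusted p under 0.05 in control and runner arrays (circles), with the mean and SD of each group beside them and array 1 of each group marked with its number. For Ocm, Ush1c and Slc26a5 runner 1 is the highest runner, at 6.28, 6.11 and 4.53.

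Of the 4 measured genes of the transduction channel complex, 3 had a lower mean in runners and 1 a higher one, and 0 reached an unadjusted p under 0.05. Tmc1 encodes the pore-forming subunit of mature cochlear hair cells. It measured 4.45, 4.37, 4.27, 4.51 and 4.59 in controls and 4.52, 4.29, 4.07, 4.39 and 4.15 in runners. Only runners 3 and 5 lay below all controls, and the difference was -0.15 ± 0.090 (SE; adjusted p = 0.757). Tmc2, a close relative used by immature cochlear and by vestibular hair cells, measured 4.06, 4.14, 4.05, 4.03 and 4.13 in controls and 3.99, 4.01, 3.93, 3.95 and 4.14 in runners. These signals lay at background level, with a difference of -0.075 ± 0.055 (SE; adjusted p = 0.790).

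Lhfpl5, which joins the tip link to the channel, was nearly equal in both groups. It measured 5.90, 5.75, 5.72, 5.62 and 5.72 in controls and 5.76, 5.73, 5.69, 5.63 and 5.87 in runners, a difference of -0.002 ± 0.065 (SE) with a 95% interval from -0.14 to 0.14. Tmie, a small membrane protein required for transduction, measured 6.03, 6.10, 6.08, 6.11 and 5.89 in controls and 6.29, 6.03, 6.07, 5.91 and 6.09 in runners. Its groups overlapped, with runner 1 the highest array and control 5 the lowest, and the difference of 0.036 ± 0.073 (SE) had an interval from -0.12 to 0.20. The adjusted p was 0.998 for Lhfpl5 and 0.942 for Tmie. The signs of Lhfpl5 and Tmie were not stable, since Lhfpl5 turned positive at 0.021 with median centring and Tmie negative at -0.017 without runner 1.

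The tip link is made of a Cdh23 dimer at its upper end and a Pcdh15 dimer at its lower end. Pcdh15 measured 4.22, 4.30, 4.20, 4.21 and 4.23 in controls and 4.16, 4.25, 4.03, 4.16 and 4.13 in runners, so that 4 runners lay below the lowest control. The difference was -0.086 ± 0.054 (SE; adjusted p = 0.770) at signals just above background. Cdh23 measured 5.30, 5.24, 5.12, 5.14 and 5.19 in controls and 5.26, 5.15, 5.03, 5.13 and 5.15 in runners. Its groups overlapped, and the difference was -0.054 ± 0.059 (SE; adjusted p = 0.877).

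Among the 4 Usher and ankle link scaffold genes, Ush1c reached an unadjusted p under 0.05. It encodes harmonin, the scaffold that anchors the upper end of the tip link, and it is also expressed in the brush border of gut epithelium. Its signal was 5.99, 6.20, 5.87, 5.96 and 6.08 in controls and 6.11, 5.81, 5.68, 5.65 and 5.76 in runners. Runners 2 to 5 lay below every control and runner 1 lay above 4 of the 5 controls. Means were 6.02 ± 0.13 (SD, n = 5) and 5.80 ± 0.18 (SD, n = 5), a difference of -0.22 ± 0.091 (SE), with an interval from -0.42 to -0.023 and an adjusted p of 0.654. Without runner 1 the difference was -0.30 ± 0.072 (SE; adjusted p = 0.0863). Leaving out runner 3 instead gave -0.19 (adjusted p = 0.885), and over all alternative fits the adjusted p reached up to 0.992.

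Clrn1, the Usher protein clarin 1, also had its highest runner signal on runner 1, at 4.67, above every control, with runners 2 to 5 between 4.18 and 4.42, below the lowest control at 4.44. Its difference was -0.15 ± 0.088 (SE; adjusted p = 0.757). Ush1g, the scaffold protein SANS that partners harmonin, differed by 0.065 ± 0.067 (SE). Control 4 lay at 5.43 for Ush1g while the other controls lay between 5.67 and 5.71. Pdzd7, an organizer of the ankle links at the base of the bundle, differed by -0.033 ± 0.058 (SE).

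All 4 unconventional myosins had a lower mean in runners, with 0 at an unadjusted p under 0.05 and differences from -0.13 to -0.047. Myo7a, the motor at the upper tip link density, lay between 5.60 and 5.76 in controls, at 5.76 in runner 1 and between 5.38 and 5.55 in runners 2 to 5 (difference -0.13 ± 0.070, SE; adjusted p = 0.742). Myo15, the motor that carries elongation factors to the stereocilia tips, lay between 5.13 and 5.33 in controls and between 5.05 and 5.32 in runners, with a difference of -0.10 ± 0.065 (SE). Myo6, a motor that moves toward the base of stereocilia and is widely expressed, differed by -0.047 ± 0.059 (SE). Myo3a, an espin-carrying motor of the tips, had signals at background level on every array.

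Of 11 genes of the actin core, tips and rootlet, 9 had a lower and 2 a higher mean in runners, and Pls1 alone reached an unadjusted p under 0.05. Pls1 encodes plastin 1, an actin cross-linker of stereocilia and of intestinal microvilli. It measured 7.23, 7.60, 7.20, 7.49 and 7.41 in controls and 7.26, 7.22, 7.02, 7.30 and 7.13 in runners. Controls 1 and 3 lay within the range of the runners and controls 2, 4 and 5 above all of them. Means were 7.39 ± 0.17 (SD, n = 5) and 7.19 ± 0.11 (SD, n = 5), a difference of -0.20 ± 0.085 (SE), with an interval from -0.38 to -0.015 and an adjusted p of 0.674.

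Of the other actin genes, Grxcr2, which acts at the stereocilia base, lay between 4.92 and 5.18 in controls, at 5.14 in runner 1 and between 4.74 and 4.90 in the other runners (difference -0.15 ± 0.081, SE). Eps8l2, a relative of the tip protein Eps8, lay between 6.33 and 6.50 in controls and between 6.23 and 6.39 in runners, a difference of -0.10 ± 0.055 (SE). Eps8 itself, which regulates actin growth at the tips, differed by -0.079 ± 0.061 and had its lowest value in runner 1. Triobp, the bundler of the rootlet, differed by -0.16 ± 0.094, the cross-linker Fscn2 by -0.094 ± 0.057 and the bundler Espn by -0.053 ± 0.062 (SE). Rdx, a linker of actin to the membrane, differed by -0.033 ± 0.058 and Elmod3, a regulator of small GTPases, by 0.028 ± 0.074. Tprn, taperin of the stereocilia base, had the highest difference of the list, 0.13 ± 0.12 (SE; adjusted p = 0.839), with runner 1 at 6.99 and runners 2 to 5 between 7.15 and 7.50.

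The remaining members act in the membrane, the calcium pump and bundle upkeep, and 3 of these 4 had a lower mean in runners. Loxhd1, needed to maintain transduction in mature hair cells, reached an unadjusted p under 0.05. It measured 5.11, 5.14, 5.03, 5.09 and 5.15 in controls and 5.04, 5.01, 4.90, 4.92 and 5.05 in runners. All runners lay below the control mean and only control 3 lay among the runners. Means were 5.10 ± 0.046 (SD, n = 5) and 4.98 ± 0.069 (SD, n = 5), a difference of -0.12 ± 0.053 (SE), with an interval from -0.24 to -0.0070 and an adjusted p of 0.678. Ptprq, a phosphatase of the shaft connectors between stereocilia, had the lowest difference of the list, -0.33 ± 0.18, with the largest SE of the list, since it ranged from 6.09 to 7.0 in controls and from 5.98 to 6.84 in runners (adjusted p = 0.736). Gipc3, an adaptor encoded by a deafness gene, differed by -0.12 ± 0.065 (SE).

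**Figure D3:**
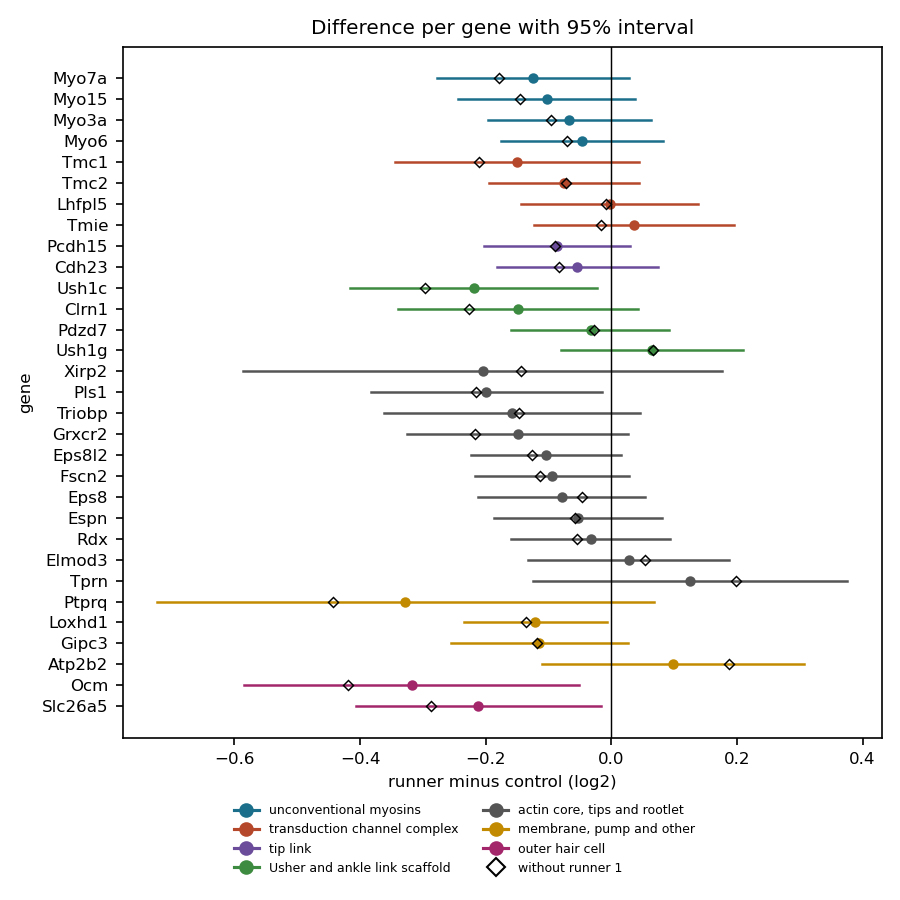
Difference of each hair bundle gene, runner minus control on the log2 scale (x axis), with its 95% interval from limma, coloured by role; open diamonds show the difference without runner 1. The intervals of Ocm, Ush1c, Slc26a5, Pls1 and Loxhd1 lie below 0, and Lhfpl5 is centred at -0.002.

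The runner arrays differed among themselves. Over the 31 members, the median deviation from the control mean was 0.021 on runner 1, -0.078 on runner 2, -0.17 on runner 3, -0.14 on runner 4 and -0.067 on runner 5. On control arrays it lay between -0.065 and 0.058. Runner 1 was the highest of the 5 runners for 16 of 31 members, beside 33.9% of all genes, and runner 3 was the lowest for 17 of 31, beside 20.3% of all genes. Control 3 was the lowest of the controls for 17 of 31 members, beside 16.3% of all genes. The highest runner was again runner 1 for Ocm, Slc26a5, Ush1c, Clrn1, Myo7a, Tmc1 and Ptprq, while Atp2b2, Tprn and Eps8 were lowest on that array.

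Single arrays decided the count at an unadjusted p under 0.05. Without runner 1 there were 13 such members (41.9%) beside 14.5% of all genes, and 12 of them were lower, or 38.7% of members beside 8.59% of all genes. For 6 members (19.4%) all remaining runners then lay below all controls, beside 3.33% of all genes in that direction and 5.82% in either direction. These were Myo7a, Ush1c, Clrn1, Slc26a5, Grxcr2 and Eps8l2. Still 0 of 31 reached an adjusted p under 0.05, beside 0.333% of all genes. Leaving out runner 1 and control 1 together gave 11 lower members at that unadjusted threshold, beside 9.07% of all genes, and 0 of 31 passed, beside 1.43%. Leaving out another array lowered the count to 0 (runner 3), to 1 (runner 4, control 2 or control 5), to 2 (runner 5) or to 3 (control 4), and without runner 2, control 1 or control 3 it was 5, 4 and 6. The share of all genes at that threshold lay between 4.84% and 8.16% in these 9 fits. At a looser threshold of 0.1 on the adjusted p 0 of 31 members passed on all 10 arrays, beside 0.00672% of all genes, and 3 of 31 (9.68%; Ocm, Ush1c and Slc26a5) without runner 1, beside 2.47% of all genes.

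Runner 1 also stood apart from the other runners in genes of neighbouring cells. Of all genes tested, 49.5% were lower in runners, and 3.92% were lower at an unadjusted p under 0.05. After adjustment 0.00672% of all genes passed, and 0.333% without runner 1. The mean of 9 supporting cell and tectorial genes was between 6.88 and 7.10 in controls, 7.11 in runner 1 and between 6.61 and 6.76 in runners 2 to 5. Of these 9, 8 were lower in runners, 4 at an unadjusted p under 0.05 and 0 after adjustment over all genes, with the proteoglycan gene Epyc at -0.52 ± 0.15 (SE) and Otogl at -0.41 ± 0.15 first, and 2 (Epyc and Otoa) passed without runner 1. The mean of 6 spiral ligament genes was between 8.24 and 8.43 in controls, 8.46 in runner 1 and between 7.84 and 8.09 in the other runners. All 6 were lower, 4 at an unadjusted p under 0.05. Other hair cell genes were lower in 7 of 10, with 0 at an unadjusted p under 0.05. Their mean was 5.24 to 5.36 in controls, 5.40 in runner 1 and 5.11 to 5.27 in runners 2 to 5. All 6 cerebellar genes measured were higher in runners, with 0 at an unadjusted p under 0.05 and a mean of 9.14 to 9.34 in controls, 8.98 in runner 1 and 9.41 to 9.62 in runners 2 to 5. Of these 4 lists, only Chrna9, among the other hair cell genes, lay below the background level of 4.13, at 3.89. The median of the receptor genes, 2.46, had 0 genes of these lists below it, and 92.8% of all genes above it. How far a different share of tissues in the samples bears on the hair bundle genes was not tested.

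**Figure D4:**
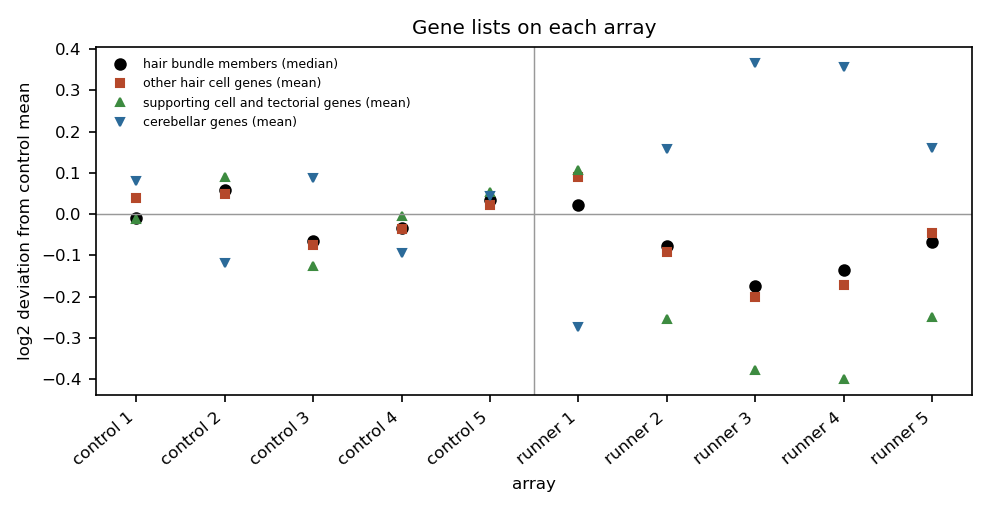
Deviation from the control mean in log2 units (y axis) on each array (x axis) for the median of the 31 hair bundle genes (circles) and the means of other hair cell genes (squares), supporting cell and tectorial genes (upward triangles) and cerebellar genes (downward triangles). Hair bundle genes lie at 0.021 on runner 1 and between -0.17 and -0.067 on runners 2 to 5, while cerebellar genes are lowest on runner 1.

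Other genes of the hair bundle that are not on the list had mostly lower means in runners as well. Of 24 measured, 22 lay above background, beside 69.4% of all genes tested. The number lower in runners was 18, beside 49.5% of all genes, with a median difference of -0.076. At an unadjusted p under 0.05 there was 1 of the 24, beside 3.92% of all genes lower and 7.13% in either direction. After adjustment over all genes 0 passed, beside 0.00672%. The 1 was Myo1c, a widely expressed membrane myosin, at -0.16 ± 0.063 (SE), followed by p-value by Gpsm2, which sets bundle polarity, at -0.19 ± 0.090 (SE). Strc, stereocilin of the bundle's horizontal top connectors, differed by -0.095 ± 0.061 and Whrn, whirlin of the tips, by 0.080 ± 0.071 (SE). Their mean was 5.94 to 6.03 in controls, 6.04 in runner 1 and 5.85 to 5.93 in runners 2 to 5.

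Atp2b2 and Xirp2 were each correlated across the arrays with genes of another tissue known to express them. No other list was tried for these genes, so the relations are not shown to be particular to those tissues. Atp2b2 encodes the calcium pump PMCA2 of stereocilia, which cerebellar neurons also express. It measured 8.94, 8.78, 8.79, 8.71 and 8.81 in controls and 8.55, 9.08, 8.96, 9.11 and 8.85 in runners. Runner 1 was the lowest array, runners 2 to 4 lay above every control, and the difference was 0.099 ± 0.096 (SE; adjusted p = 0.854). Over the 10 arrays Atp2b2 correlated with the mean of the cerebellar genes at a Pearson r of 0.87 and a Spearman rho of 0.85 (permutation p = 0.0015 and 0.00326, two-sided, adjusted over 4 relations 0.0015 and 0.00326). Without runners 1 and 3, the arrays farthest from the median of the list, r was 0.83.

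Xirp2 encodes an actin-binding protein of stereocilia and of striated muscle. It measured 5.85, 6.17, 6.11, 6.31 and 5.55 in controls and 5.54, 5.53, 6.30, 5.52 and 6.06 in runners, a wide spread in each group, with a difference of -0.21 ± 0.18 (SE; adjusted p = 0.823). It correlated with the mean of 8 skeletal muscle genes at r = 0.94 and rho = 0.91 (permutation p = 3e-05 and 0.00058, adjusted 6e-05 and 0.00116), and at r = 0.95 without runners 2 and 3. The muscle mean was 8.11 to 8.89 in controls and 8.09 to 9.12 in runners. Above background lay 8 of 8 muscle genes, beside 69.4% of all genes tested.

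Ocm and Slc26a5 correlated with the mean of the 10 other hair cell genes. For Ocm r was 0.91 and rho 0.99 (permutation p = 3e-05 for each, adjusted 6e-05 and 0.00012), and for Slc26a5 r was 0.91 and rho 0.87 (permutation p = 0.00026 and 0.00217, adjusted 0.000347 and 0.00289). Without runners 1 and 3 r was 0.86 for Ocm and 0.84 for Slc26a5. Runners 2, 3 and 4 stood apart in Ocm, between 5.60 and 5.72, from all other arrays, between 6.13 and 6.28, and its r is pooled over this gap. The values of an array share 1 RNA sample and 1 normalization, and these pairs were picked with earlier results of these arrays known. Supporting cell and tectorial genes and spiral ligament genes also had their highest runner mean on runner 1. Correlations of Ocm and Slc26a5 with those lists were not computed, so the relation is not shown to be particular to hair cell genes.

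**Figure D5:**
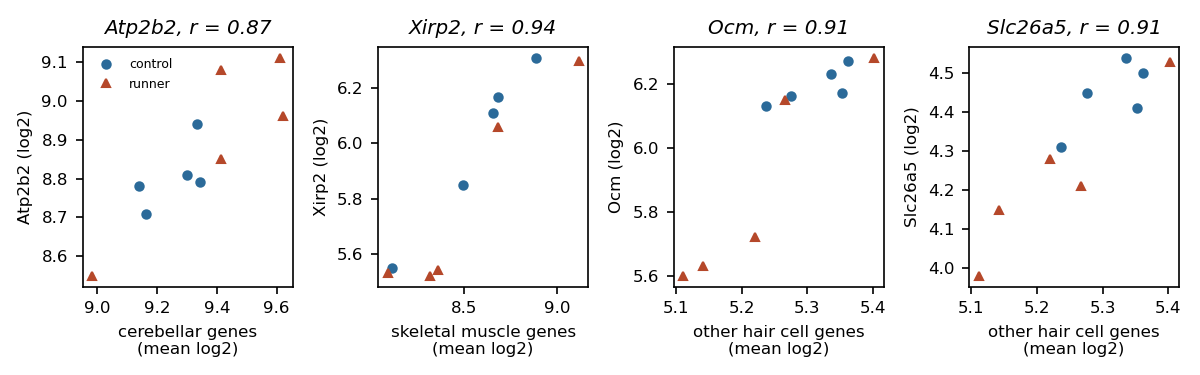
Log2 signal of Atp2b2, Xirp2, Ocm and Slc26a5 (y axes) against the mean log2 signal of cerebellar, skeletal muscle and other hair cell genes (x axes) on 5 control (circles) and 5 runner arrays (triangles). Each of the 4 panels rises, with r from 0.87 to 0.94.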

How the data were processed

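Inner ear RNA of 5 runner and 5 control samples was labelled with biotin by the WT PLUS kit of Affymetrix, according to the labels. The authors deposited log2 expression values. RMA and Partek are named per the submitters' processing notes, with no version; array, genome build and filters were not given in the sources used here. RMA makes array distributions nearly equal, so a shift of most genes cannot be seen. Of 39295 probe sets, 30130 had 1 symbol (2146 several, 7019 none); 827 symbols were updated by Entrez identifier, and the row of highest mean was kept for 294 genes with several. Limma 3.58.1 (R 4.3.3; lmFit, eBayes, group only, two-sided, Benjamini-Hochberg over 29766 genes) gave differences. It was checked on simulated data with changes larger than the difference of any member, so recovery of differences this small was not checked. Correlations used 100000 permutations, and figures matplotlib 3.10.9. Alternatives were a filter on dim genes, moderation, normalization, array weights, averaged probe sets, a replicate block and left-out arrays. The members, lists, tests and the rule for values given in full (unadjusted p under 0.05, or a transduction gene) were chosen with earlier results of these data known. The number of arrays limits the precision.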

Additional observations from a re-analysis of the deposited data

Results flagged for a closer look

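Each group of each of the 31 hair bundle genes was searched for an array standing far from the other 4, which gave 2 of 62 groups, where chance gives about 5%. Pcdh15 of the tip link was highest in control 2, at 4.30, while the other controls lay between 4.20 and 4.23. Ush1g, the scaffold protein SANS, was lowest in control 4, at 5.43, while the other controls lay between 5.67 and 5.71. Neither array was the one that stood apart in the other gene.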

How the results depend on the processing

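No hair bundle gene reached an adjusted p under 0.05 under any alternative run. On all 10 arrays 0 reached 0.1, and 5 an unadjusted p under 0.05; without runner 1 the lowest adjusted p was 0.0851 (Ocm), and without runner 1 and control 1 it was 0.0878 (Ush1c). Between 24 and 27 members were lower, and the median member difference ranged from -0.12 to -0.079 with single arrays left out and was -0.071 with median centring, which moved the median of all genes to 0.024. The number of genes passing among all tested was 2, but 15 with array weights, 1 without moderation, 2 to 99 with single arrays left out (99 without runner 1) and 426 without runner 1 and control 1. The number of members at an unadjusted p under 0.05 was 13 with array weights (41.9%, beside 12.9% of all genes), 3 with median centring (9.68% beside 8.14%) and 2 without moderation (6.45% beside 7.02%). Lhfpl5 turned positive with array weights (0.0080), median centring (0.021), repeated quantile normalization (0.026), without runner 1 and control 1 (0.031) and with single arrays left out (-0.036 to 0.037). Tmie turned negative without runner 1 and control 1 (-0.019) and with single arrays left out (-0.017 to 0.078). The cause of these moves was not tested. Without Myo3a and Tmc2, which a filter on dim genes removes, 24 of 29 members were lower. Above the 75th and 99th percentiles of receptor genes lay 31 and 25 members, and above the median of all genes 20. With the replicate number as a block, 0 members passed and 8 reached an unadjusted p under 0.05 (25.8%, beside 6.67% of all genes). After removal of group means, same-numbered arrays correlated between -0.25 and 0.28, and arrays of different number between -0.35 and 0.29. The labels do not say what the numbers mean, so whether they pair the samples cannot be told from these values.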

Other observations

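The counts of the lists below stand beside these shares of all genes. Lower means in runners were found for 49.5%. Below 0.05 unadjusted lay 3.92% with lower and 3.21% with higher means. After adjustment 0.00672% passed, and 0.333% without runner 1. Vestibular genes, listed as markers of balance organs, numbered 5, of which 4 had lower means in runners. Zpld1 at 3.62 lay below the background level of 4.13 and Oc90 at 4.305 just above it. Whether these genes mark balance organs in this mixed tissue was not tested. In limma 0 passed after adjustment and 1 lay below 0.05 unadjusted, Anxa4 (-0.17 ± 0.078, SE), and Otop1 of otolith formation differed by 0.084 ± 0.092. Their mean was 5.16 to 5.39 in controls, 5.37 in runner 1 and 5.09 to 5.27 in runners 2 to 5. For the stria vascularis 6 of 9 genes had lower means, with 4 below 0.05 unadjusted and 0 adjusted (1, Tyr, without runner 1), among them Cldn11 at -0.25 ± 0.064 and tyrosinase, Tyr, at -0.37 ± 0.11 (SE). All 9 marrow genes had lower means, with 6 below 0.05 unadjusted and 0 adjusted, but 5 adjusted without runner 1 (Alas2, Ly6g, Cd79b, Blk and Vpreb3). The 6 middle ear epithelium genes measured had lower means too, with 0 below 0.05 unadjusted, and their mean was 5.81 to 6.82 in controls and 5.63 to 5.97 in runners. Of 7 bone genes 6 were lower, and 2, Bglap and Bglap2, passed, or 4 without runner 1, with Col1a1 and Col1a2. Of 10 neuron genes 8 had higher means, with 3 below 0.05 unadjusted and 0 adjusted, led by Ntng1 (0.29 ± 0.077, SE).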
